A study of Mus musculus with 12 samples.

Results

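The inhibitory receptor genes of T cells described here are 8 of the 77175 genes in the deposited count table: Pdcd1, Havcr2, Lag3, Ctla4, Tigit, Cd160, Btla and Entpd1. They were picked from the table by symbol, with earlier results of these data known, and each symbol was found. Messenger RNA was sequenced in 12 mouse libraries that form 4 groups of 3. Group names give the labelled tumor line and the cell type. OVA T cells and B16-F10 T cells are OT-1 CD8+ T cells of the genotype C57BL/6J-OT-I, taken by CD8 beads from tumors of the line B16-F10-OVA or B16-F10. OVA tumor cells and B16-F10 tumor cells are GCaMP6s-positive melanoma cells sorted by flow cytometry from the same 2 kinds of tumor. The melanoma cells carried the calcium reporter GCaMP6s from a lentiviral EF1A vector (Puro), and the OVA line also carried ovalbumin from an EF1A vector (Neo). The tumors grew in NOD-SCID mice, which lack T and B cells of their own but keep macrophages, dendritic cells and NK cells of reduced function. All 4 groups share the treatment: OT-1 T cells activated beforehand with anti-CD3/anti-CD28 beads were given, and tumors were taken 2 days later. The OT-1 receptor recognises an ovalbumin peptide on MHC class I, so the comparison asks how the genes stand in T cells from tumors with and without that antigen. The labels do not tie libraries to mice, so p-values reflect how far libraries of a group scatter, which may be technical only.

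Inhibitory receptors are surface proteins that dampen T cell receptor and co-stimulatory signals when they meet their ligands on tumor, stromal or antigen-presenting cells. Most are induced within days of activation, so their messenger RNA can mark recent antigen contact as well as the long-lasting state called exhaustion. Entpd1 encodes the enzyme CD39 rather than a receptor in the strict sense, and it is also made by endothelial and myeloid cells. Havcr2 is also made by macrophages and dendritic cells, Btla by B cells and dendritic cells, and Cd160 by NK cells.

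The libraries held between 15494683 and 33263730 counts each, and levels below are counts scaled to the library total (CPM), with the SD over 3 libraries. All 12 T cell markers reached a mean of 1 CPM in both T cell groups, where they summed to 890 ± 0.556 CPM (OVA) and 934 ± 7.15 CPM (B16-F10). The T cell libraries went partly against their label. They held endothelial markers at 7508 ± 33.2 CPM (OVA) and 8167 ± 34.8 CPM (B16-F10), and fibroblast markers at 4840 ± 41.6 CPM (OVA) and 5173 ± 48.5 CPM (B16-F10). Both sums stood above that of the T cell markers. A level given below for T cells is that of the library and need not come from T cells. OVA tumor cells also went partly against their label: they held all 12 T cell markers at a mean of at least 1 CPM, with a sum of 127 ± 4.65 CPM, and all 10 macrophage markers, with a sum of 1810 ± 5.80 CPM. Endothelial markers summed to 3243 ± 16.7 CPM and fibroblast markers to 1969 ± 9.71 CPM in OVA tumor cells, both above the macrophage sum. In B16-F10 tumor cells, T cell markers summed to 4.64 ± 0.360 CPM, with Cd3e, Trac, Trbc2 and Cd2 at 0 counts. Melanoma markers summed to 103 ± 4.21 CPM in OVA T cells, 235 ± 3.87 CPM in B16-F10 T cells, 9671 ± 8.62 CPM in OVA tumor cells and 22348 ± 51.2 CPM in B16-F10 tumor cells. The ribosomal RNA entry Rn18s-rs5 stood at 3156 ± 22.8 CPM in OVA T cells, 10481 ± 319 CPM in B16-F10 T cells, 12138 ± 108 CPM in OVA tumor cells and 5593 ± 69.6 CPM in B16-F10 tumor cells. Mitochondrial genes summed to 27780 ± 145 CPM in OVA T cells, 33133 ± 824 CPM in B16-F10 T cells, 65044 ± 741 CPM in OVA tumor cells and 17644 ± 489 CPM in B16-F10 tumor cells. Their part in the results below was not tested.

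Promoter windows from RefSeq (build GRCm38.p6, 250 bases before to 50 after the annotated start) were available for 7 of the 8 genes; none was at hand for Lag3. Shown are 4 that stand for the behaviours described below between the T cell groups: Havcr2 moved most with the OVA label, Ctla4 and Tigit moved together by a similar amount, and Btla moved the other way. Havcr2 is at chr11:46454681-46454980 on the plus strand, Ctla4 at chr1:60908775-60909074 on the plus strand, Tigit at chr16:43664135-43664434 on the minus strand and Btla at chr16:45224087-45224386 on the plus strand. Capitals mark matches on either strand to GGAAA (the core bound by NFAT factors), TGANTCA (the AP-1 element) and TGTGGT (the core bound by Runx factors). These motifs do not overlap in the windows shown, and each sequence reads in the direction of the gene.
Havcr2: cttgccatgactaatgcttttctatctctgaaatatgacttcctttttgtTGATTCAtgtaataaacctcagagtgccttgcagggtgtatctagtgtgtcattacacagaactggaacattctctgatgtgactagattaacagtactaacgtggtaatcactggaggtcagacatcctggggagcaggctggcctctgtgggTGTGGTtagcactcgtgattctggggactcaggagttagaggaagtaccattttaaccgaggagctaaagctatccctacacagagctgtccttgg
Ctla4: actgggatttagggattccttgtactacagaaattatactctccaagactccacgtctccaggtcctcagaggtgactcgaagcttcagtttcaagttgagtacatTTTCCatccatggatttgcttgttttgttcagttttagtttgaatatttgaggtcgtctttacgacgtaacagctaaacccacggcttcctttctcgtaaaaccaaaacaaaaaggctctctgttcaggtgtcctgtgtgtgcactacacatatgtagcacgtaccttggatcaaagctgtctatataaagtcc
Tigit: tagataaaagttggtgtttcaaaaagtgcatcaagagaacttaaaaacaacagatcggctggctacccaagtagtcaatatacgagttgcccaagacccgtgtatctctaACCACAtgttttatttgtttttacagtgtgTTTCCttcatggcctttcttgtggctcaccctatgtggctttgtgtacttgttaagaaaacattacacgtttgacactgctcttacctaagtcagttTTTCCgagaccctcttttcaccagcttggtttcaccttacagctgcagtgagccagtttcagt
Btla: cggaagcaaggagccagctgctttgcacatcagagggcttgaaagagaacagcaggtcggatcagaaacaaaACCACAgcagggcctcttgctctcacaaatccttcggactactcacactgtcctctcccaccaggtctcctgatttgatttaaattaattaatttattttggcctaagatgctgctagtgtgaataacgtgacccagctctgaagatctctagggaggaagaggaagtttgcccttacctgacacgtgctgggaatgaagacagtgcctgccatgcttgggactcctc
The Havcr2 window held 1 AP-1 match 200 bases before the start and 1 Runx match 46 bases before it, with no NFAT core. The Ctla4 window held 1 NFAT core, 144 bases before the start. The Tigit window held 2 NFAT cores, 110 and 13 bases before the start, and 1 Runx match 140 bases before it. The Btla window held 1 Runx match, 178 bases before the start. Of all 32851 mouse windows of this length, 61.3% hold the NFAT core, 16.8% the Runx core and 7.81% the AP-1 element, so the matches are described only and mark no bound site.

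All 8 genes differed between OVA T cells and B16-F10 T cells by the edgeR quasi-likelihood test adjusted over all genes, 7 higher and 1 lower in the OVA group. Across all 16536 genes tested, 23.7% were called higher and 22.4% lower, so a call is common here and the sizes carry more than the count. All 8 members passed the filter on low counts in this comparison and in those that follow. Where B16-F10 tumor cells take part, only Lag3 and Havcr2 reached the filter's level in that group. The other members passed there through other groups. Against a 2-fold threshold, which 1.79% of genes passed upward and 0.931% downward, 2 members were called, Havcr2 and Lag3, both higher. The median log2 fold change of the members was 0.77, beside -0.0074 for all genes tested. In bulk libraries, fewer cells of a type and less RNA per cell cannot be told apart.

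**Figure D1:**
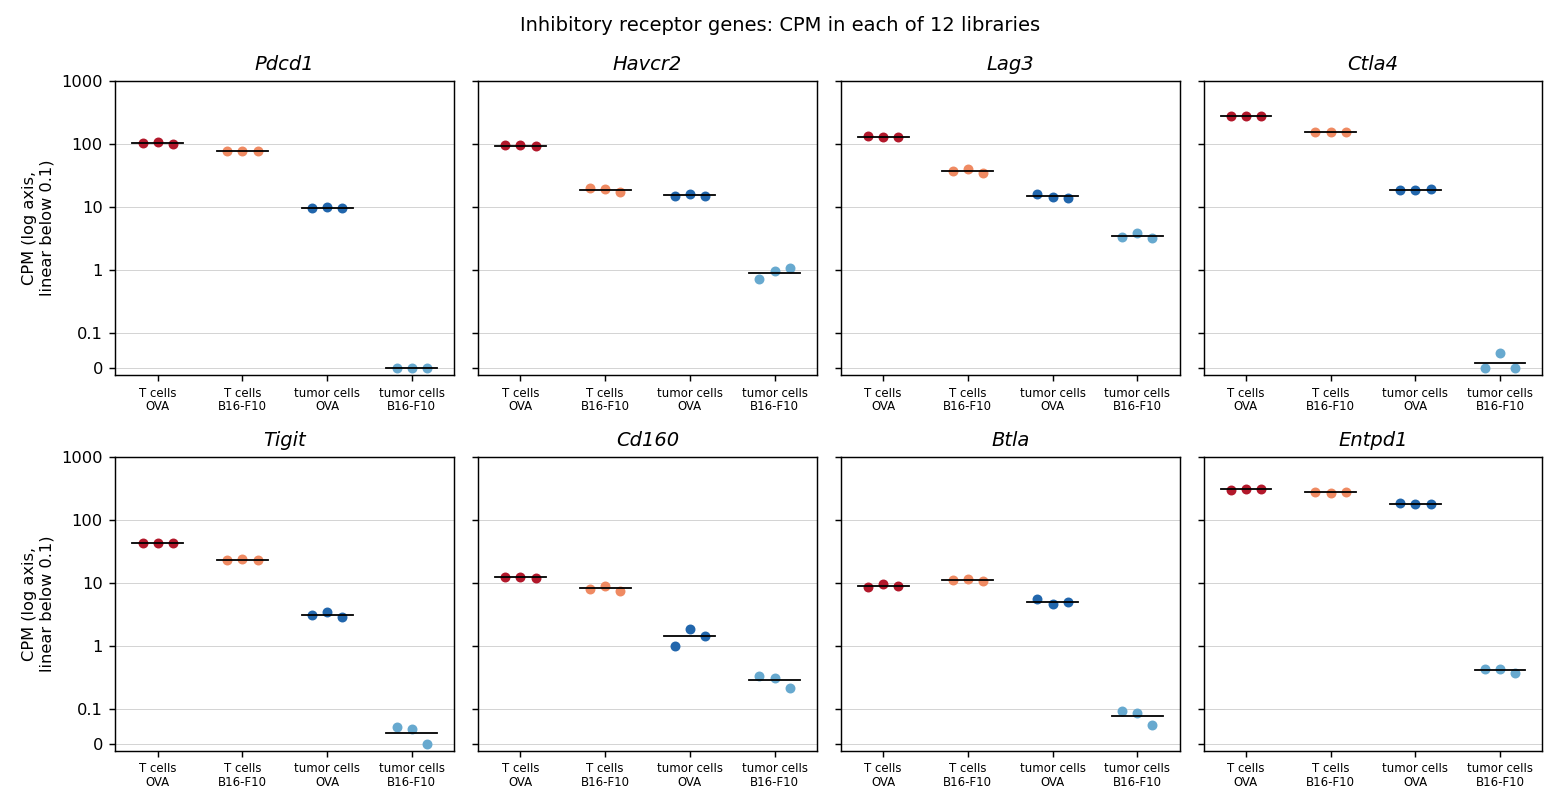
Level of each inhibitory receptor gene in CPM on a log axis (linear below 0.1) in every library; points are libraries and lines are means of 3. From left to right stand T cells OVA, T cells B16-F10, tumor cells OVA and tumor cells B16-F10; Pdcd1 was at 0 counts in all 3 libraries of the last group, and only Btla was lower in T cells OVA than in T cells B16-F10.

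Pdcd1 encodes PD-1, the receptor for PD-L1 and PD-L2 that recruits the phosphatase SHP-2. Its level was 104, 106 and 102 CPM in the 3 T cell libraries labelled OVA, against 76.2, 77.7 and 78.5 CPM in those labelled B16-F10. The groups did not overlap, and the log2 fold change was 0.48 (SE 0.029, edgeR adjusted p = 1.38e-13). Ctla4, which competes with CD28 for CD80 and CD86, had 282, 283 and 281 CPM in OVA T cells, against 155, 155 and 156 CPM in B16-F10 T cells. Libraries of a group differed little for Ctla4, and the log2 fold change was 0.92 (SE 0.019, edgeR adjusted p = 8.75e-24). Neither gene passed the 2-fold threshold.

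Havcr2 encodes TIM-3, whose described ligands include galectin-9, CEACAM1 and HMGB1. It had 95.2, 94.8 and 92.6 CPM in OVA T cells, against 20, 19.2 and 17.6 CPM in B16-F10 T cells. The lowest OVA library stood far above the highest B16-F10 library, and the log2 fold change of 2.36 (SE 0.044, edgeR adjusted p = 5.72e-25) was the largest among the 8 members; 0.587% of all genes tested had a higher one. Lag3, a CD4-like receptor for MHC class II, had 134, 130.2 and 130.4 CPM in OVA T cells, against 37.8, 39.6 and 34.7 CPM in B16-F10 T cells. Its log2 fold change was 1.87 (SE 0.036, edgeR adjusted p = 1.06e-24), and the groups were again fully separate. Both genes also passed the 2-fold threshold, with adjusted p = 6.30e-20 for Havcr2 and 1.74e-17 for Lag3 by edgeR's glmTreat. Macrophages also make Havcr2, and their markers summed to 261 CPM (range 256 to 266) in OVA T cells and 376 CPM (range 372 to 381) in B16-F10 T cells. Dendritic cell markers summed to 269 ± 4.74 CPM in OVA T cells and 341 ± 5.92 CPM in B16-F10 T cells. Most of that sum was Ccr7, which T cells also express, at 168 CPM in OVA T cells and 210.1 CPM in B16-F10 T cells, while Batf3 stood the other way, at 8.52 CPM in OVA T cells and 5.40 CPM in B16-F10 T cells. The part of these cells in the Havcr2 level was not tested.

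Tigit, a receptor for CD155 and CD112 that competes with CD226, had 43.3, 43.0 and 42.2 CPM in OVA T cells, against 22.8, 23.5 and 22.7 CPM in B16-F10 T cells. The log2 fold change was 0.95 (SE 0.049, edgeR adjusted p = 3.28e-15), close to that of Ctla4. Cd160 and Btla both bind HVEM, the product of Tnfrsf14, yet they went opposite ways. Cd160, a lipid-anchored receptor, had 12.3, 12.1 and 11.9 CPM in OVA T cells, against 8.03, 8.87 and 7.49 CPM in B16-F10 T cells. It rose by 0.63 on the log2 scale (SE 0.088, edgeR adjusted p = 1.18e-06) with no overlap. Its exons share 68 bases with Pdzk1 on the other strand, but Pdzk1 itself was at 0.545 CPM in OVA T cells and 0.319 CPM in B16-F10 T cells. Btla had 8.45, 9.36 and 8.99 CPM in OVA T cells, against 10.9, 11.6 and 10.8 CPM in B16-F10 T cells. Its log2 fold change was -0.27 (SE 0.087, edgeR adjusted p = 0.0139), the only one below 0. That call was lost without replicate 1 of OVA T cells (adjusted p = 0.0734), without replicate 2 of B16-F10 T cells (adjusted p = 0.0657) and with DESeq2 (adjusted p = 0.0928), while the sign stayed the same.

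Entpd1 encodes CD39, which breaks down extracellular ATP and, with CD73, yields adenosine. It had 299, 305 and 303 CPM in OVA T cells, against 274, 268 and 274 CPM in B16-F10 T cells. The groups did not overlap, but the log2 fold change was only 0.21 (SE 0.018, edgeR adjusted p = 1.89e-10), and 22.4% of all genes tested had a higher one. Endothelial markers, which mark another cell type known to make CD39, ran from 7487 to 7546 CPM in OVA T cells and from 8128 to 8197 CPM in B16-F10 T cells. That list was split, with 3 of 8 called higher in OVA T cells and 4 lower, beside 23.7% and 22.4% of all genes. Pecam1 had 1812 CPM in OVA T cells and 1668 CPM in B16-F10 T cells, while Flt1 had 1975 and 2329 CPM. Their part in the Entpd1 level was not tested.

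Markers of NK cells and of CD4 and regulatory T cells were also present in the T cell libraries. The NK markers Ncr1 and Klrb1c had 0.0614 and 0.156 CPM in OVA T cells, against 0.0403 and 0.165 CPM in B16-F10 T cells. All 8 NK markers summed to 34.4 ± 1.00 CPM in OVA T cells and 52.7 ± 1.63 CPM in B16-F10 T cells. Most of that sum was Eomes (12.3 CPM in OVA T cells, 27.8 CPM in B16-F10 T cells) and Tyrobp (20.5 and 23.1 CPM). Klre1 (0.568 CPM in OVA T cells, 0.339 CPM in B16-F10 T cells) and Klra4 (0.0553 and 0.0173 CPM) stood the other way. Of the 5 markers of CD4 and regulatory T cells, 4 passed the filter and all 4 were called lower in OVA T cells, beside 22.4% of all genes. Foxp3 had 1.87 CPM in OVA T cells and 3.68 CPM in B16-F10 T cells. Cd40lg, which did not pass the filter, stood the other way, at 0.563 CPM in OVA T cells and 0.133 CPM in B16-F10 T cells. The part of these cells in Ctla4, Tigit, Cd160 and Btla was not tested.

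To set the genes against the T cell RNA of each library, counts were divided by the summed counts of Cd3e, Cd3d, Cd3g and Cd8a (subunits of the T cell receptor complex and the CD8 co-receptor), called the anchor here. The anchor summed to 309 ± 2.42 CPM in OVA T cells and 287 ± 2.55 CPM in B16-F10 T cells. This scaling moved the median log2 fold change of all genes to -0.17, and with it 12.3% of genes were called higher and 45% lower. Of the 8, 6 were still called higher in OVA T cells, Btla was called lower and Entpd1 was not called.

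**Figure D2:**
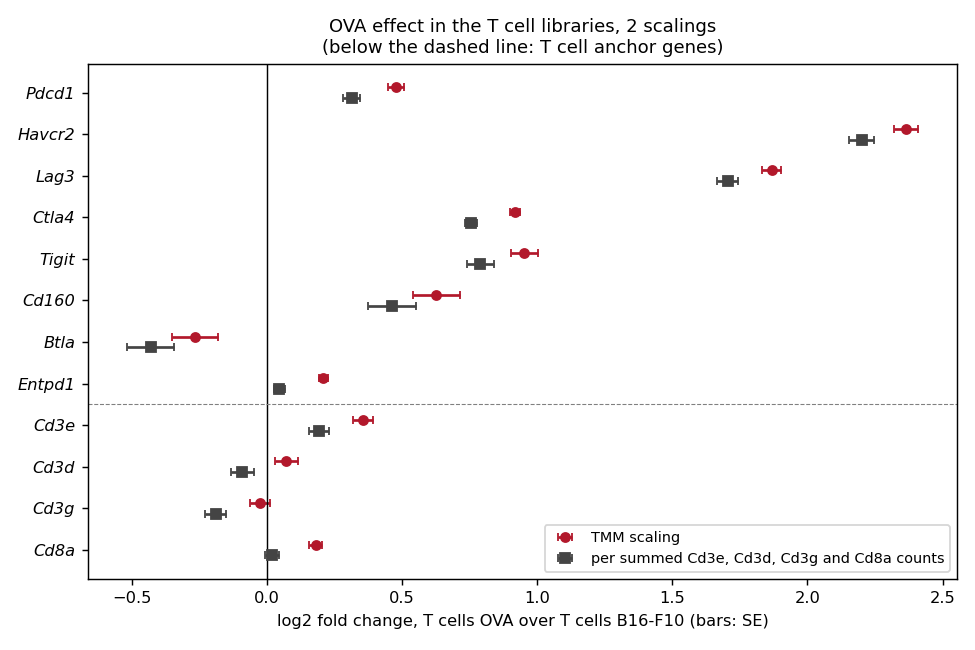
Log2 fold change of T cells OVA over T cells B16-F10 for the 8 inhibitory receptor genes and, below the dashed line, the 4 anchor genes; circles use TMM scaling, squares use the anchor, and bars are SE. Havcr2 and Lag3 lie farthest right under both scalings, Btla lies left of 0, and Entpd1 moves to 0.05 per anchor.

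Per unit of anchor, Havcr2 stood at 0.310, 0.304 and 0.299 in OVA T cells, against 0.0702, 0.0663 and 0.0614 in B16-F10 T cells. The log2 fold change was 2.20 (SE 0.046, edgeR adjusted p = 1.50e-24). Lag3 stood at 0.437, 0.418 and 0.421 in OVA T cells, against 0.133, 0.137 and 0.121 in B16-F10 T cells, a log2 fold change of 1.70 (SE 0.037, edgeR adjusted p = 5.93e-24). These 2 genes again led the set and passed the 2-fold threshold, as did 1.39% of genes upward and 1.2% downward. Smaller rises remained for Tigit (0.79, SE 0.049), Ctla4 (0.75, SE 0.022), Cd160 (0.46, SE 0.089) and Pdcd1 (0.31, SE 0.030), with edgeR adjusted p of at most 6.27e-05. Btla per anchor was 0.0275, 0.0300 and 0.0290 in OVA T cells, against 0.0384, 0.0401 and 0.0377 in B16-F10 T cells. Its log2 fold change was -0.43 (SE 0.087, edgeR adjusted p = 0.000129), of which -0.17 is the shift of the median gene. With Trac, Trbc1 and Trbc2 as the anchor instead, that value became 0.012 (adjusted p = 0.924). Of those genes Trac had 96.0 CPM in OVA T cells and 84.7 CPM in B16-F10 T cells, Trbc1 56.5 CPM in OVA T cells and 59.8 CPM in B16-F10 T cells, and Trbc2 190.1 CPM in OVA T cells and 288 CPM in B16-F10 T cells.

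Entpd1 per anchor was 0.976, 0.978 and 0.980 in OVA T cells, against 0.960, 0.924 and 0.959 in B16-F10 T cells. The log2 fold change was 0.046 (SE 0.021, edgeR adjusted p = 0.0633). It was called with the replicate number as a block (adjusted p = 0.0427), with Cd3e, Cd3d and Cd3g alone as the anchor (adjusted p = 0.0274) and with the Trac, Trbc1 and Trbc2 anchor, where it came to 0.49 (adjusted p = 1.08e-18). For each of the 8 genes the ratios of the 3 OVA libraries and the 3 B16-F10 libraries did not overlap, and the two-sided exact permutation test gave p = 0.1, the smallest it can give with 3 against 3. The share of all genes without overlap was not computed, while 57.2% of genes were called per anchor here by edgeR. The count without overlap is therefore not read as a result about the members. Within the anchor itself, Cd3e was called higher per anchor (0.19, SE 0.038, edgeR adjusted p = 7.76e-05) and Cd3g lower (-0.19, SE 0.038, edgeR adjusted p = 0.000132), so shifts of this size lie within what the anchor genes themselves show.

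**Figure D3:**
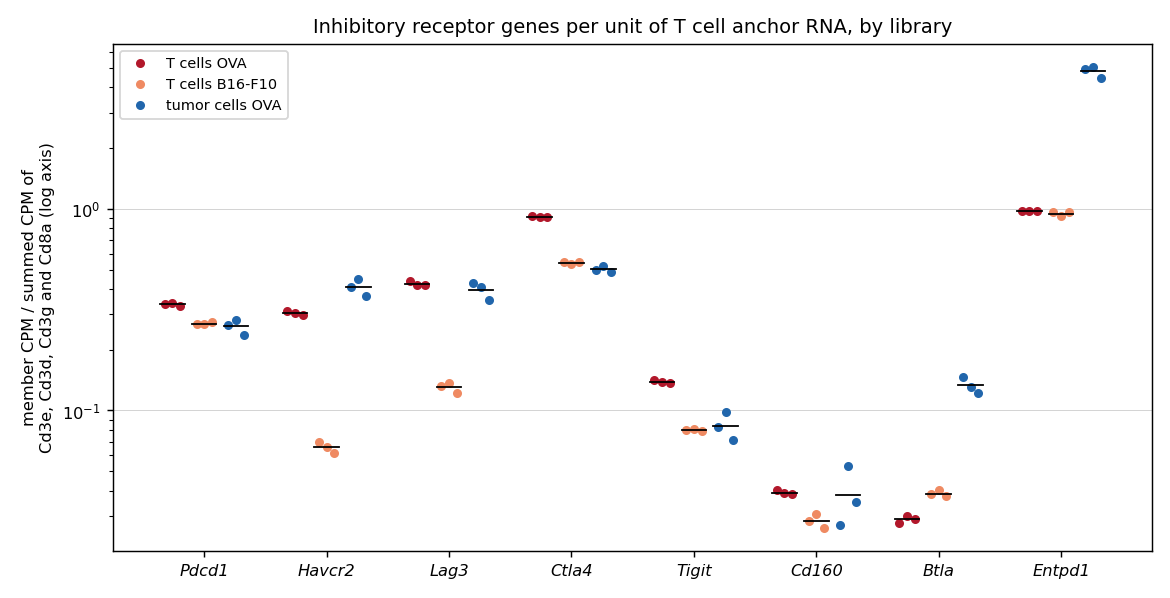
Ratio of each inhibitory receptor gene's CPM to the summed CPM of Cd3e, Cd3d, Cd3g and Cd8a on a log axis, by library, for T cells OVA, T cells B16-F10 and tumor cells OVA; lines are means of 3. Tumor cells B16-F10 are left out because their 4 anchor genes held 6 counts in all; Entpd1, Btla and, with this anchor, Havcr2 stand highest in tumor cells OVA.

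In the sorted tumor cells all 8 genes were called higher with the OVA label by edgeR, where 42% of genes were called higher and 37.4% lower. For all members but Lag3 and Havcr2 this direction was fixed in advance, as they passed the filter only through OVA tumor cells. Pdcd1, Ctla4 and Tigit had 0, 1 and 2 counts over all 3 B16-F10 tumor cell libraries. Pdcd1 had 324, 187 and 237 counts (9.74, 9.97 and 9.54 CPM) in the libraries labelled OVA, against 0 counts in all 3 labelled B16-F10, which makes it at least 206-fold higher if 3 counts in the whole group are taken as the lower limit (0.0473 CPM). Ctla4 had 18.8 ± 0.647 CPM in OVA tumor cells, against 1 count in all in B16-F10 tumor cells, a ratio of 1189 with a 95% Clopper-Pearson interval of 213 to 47000. Tigit had 3.12 ± 0.313 CPM in OVA tumor cells, against 2 counts in B16-F10 tumor cells, a ratio of 97.8 (interval 26.8 to 812). Such intervals cover counting error only. The anchor behaved alike, with 37.5 ± 2.48 CPM in OVA tumor cells and 0.0933 ± 0.0446 CPM in B16-F10 tumor cells.

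Lag3 and Havcr2 were measurable in B16-F10 tumor cells although the anchor held 6 counts there in all. Lag3 had 15.8, 14.4 and 14.1 CPM in OVA tumor cells, against 3.29, 3.83 and 3.27 CPM in B16-F10 tumor cells. This was the highest of the 8 genes in B16-F10 tumor cells per kilobase of exon, at 1.64 ± 0.151 CPM per kb. Its log2 fold change was 2.26 (SE 0.096, edgeR adjusted p = 5.34e-16). Havcr2 had 15.1, 15.9 and 14.8 CPM in OVA tumor cells, against 0.705, 0.948 and 1.06 CPM in B16-F10 tumor cells, a log2 fold change of 4.24 (SE 0.13, edgeR adjusted p = 4.49e-19). Cd160 had 0.992, 1.87 and 1.41 CPM in OVA tumor cells, against 0.329, 0.302 and 0.211 CPM in B16-F10 tumor cells (log2 fold change 2.42, SE 0.35, edgeR adjusted p = 1.45e-06). Btla had 5.41, 4.64 and 4.91 CPM in OVA tumor cells, against 5 counts over the group in B16-F10 tumor cells (6.06, SE 0.29, edgeR adjusted p = 3.72e-15). Entpd1 had 183, 178 and 180.0 CPM in OVA tumor cells, against 0.423, 0.431 and 0.369 CPM in B16-F10 tumor cells (8.93, SE 0.064, edgeR adjusted p = 6.03e-31). Macrophage markers moved the same way, at 1810 ± 5.80 CPM in OVA tumor cells and 12.9 ± 0.348 CPM in B16-F10 tumor cells, as did endothelial markers, at 3243 ± 16.7 CPM in OVA tumor cells and 21.6 ± 1.83 CPM in B16-F10 tumor cells. Dendritic cell markers summed to 151 ± 3.30 CPM in OVA tumor cells and 7.62 ± 0.557 CPM in B16-F10 tumor cells, NK markers to 61.2 ± 0.292 CPM in OVA tumor cells and 0.356 ± 0.149 CPM in B16-F10 tumor cells, and fibroblast markers to 1969 ± 9.71 CPM in OVA tumor cells and 80.0 ± 3.38 CPM in B16-F10 tumor cells. The part of these cells in these differences was not tested.

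T cell libraries stood above tumor cell libraries for all 8 genes under both labels, where 37.3% of genes were called higher and 40.2% lower with OVA, and 45.5% higher and 40.4% lower with B16-F10. Under the OVA label the log2 fold changes of T cells over tumor cells ran from 3.27 to 4.04 for Pdcd1, Lag3, Ctla4, Tigit and Cd160, beside 3.03 to 3.33 for the 4 anchor genes. Havcr2 came to 2.76 (SE 0.043), while Btla at 0.95 (SE 0.096) and Entpd1 at 0.87 (SE 0.017) did not pass the 2-fold threshold, which 10.7% of genes passed upward and 12.5% downward. Under the B16-F10 label Lag3 came to 3.67 (SE 0.080), Havcr2 to 4.64 (SE 0.12), Cd160 to 5.06 (SE 0.21), Btla to 7.27 (SE 0.21) and Entpd1 to 9.60 (SE 0.055), each with an edgeR adjusted p of at most 1.17e-17. All members but Lag3 and Havcr2 lay below the filter's level in B16-F10 tumor cells and passed it only through other groups. For them the direction under the B16-F10 label is not read as a result. The OVA effect was smaller in T cells than in tumor cells for all 8 genes in the edgeR interaction test, as for 41.3% of all genes, against 27.7% with a larger effect. For all members but Lag3 and Havcr2 that difference rests on a level in B16-F10 tumor cells below the filter's.

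Per unit of anchor, OVA T cells and OVA tumor cells could also be compared. With this scaling the median log2 fold change of all genes was -3.19, with 0.613% of genes called higher and 98.1% lower, so 0 on this scale is the point at which a gene tracks the anchor and not the typical gene. Ctla4 per anchor was 0.912 ± 0.0069 in OVA T cells and 0.502 ± 0.019 in OVA tumor cells (SD, log2 fold change 0.87, SE 0.074, edgeR adjusted p = 3.69e-31). Tigit (0.75, SE 0.11, edgeR adjusted p = 7.56e-11) and Pdcd1 (0.37, SE 0.085, edgeR adjusted p = 1.39e-05) were also called higher in T cells. Lag3 was 0.425 ± 0.010 in OVA T cells and 0.396 ± 0.040 in OVA tumor cells, and was not called (0.10, SE 0.078, edgeR adjusted p = 0.189). Cd160 was not called either (0.12, SE 0.17, edgeR adjusted p = 0.507), and without replicate 1 of OVA tumor cells its value was -0.12 (adjusted p = 0.570). Havcr2 was 0.305 ± 0.0057 in OVA T cells and 0.410 ± 0.041 in OVA tumor cells, called lower in T cells (-0.42, SE 0.079, edgeR adjusted p = 1.54e-07). With the Trac, Trbc1 and Trbc2 anchor its value was 0.040 (adjusted p = 0.447), while Lag3 (0.55, adjusted p = 2.52e-12) and Cd160 (0.57, adjusted p = 0.00119) were called. Lag3 was called as well with Cd3e, Cd3d and Cd3g alone (0.21, adjusted p = 0.00747). Every gene is divided by the same anchor sum, at 37.5 ± 2.48 CPM in OVA tumor cells. Its scatter is shared by all genes, so the size of the edgeR adjusted p here and for Entpd1 and Btla below is not read. The two-sided exact permutation test on the ratios gave p = 0.1, the smallest it can give, for Pdcd1, Havcr2, Ctla4, Tigit, Btla and Entpd1. For Lag3 the exact permutation test gave p = 0.3, and the ratios of Lag3 and Cd160 overlapped between the groups.

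Entpd1 and Btla departed most from the anchor. Entpd1 per anchor was 0.976, 0.978 and 0.980 in OVA T cells, against 4.96, 5.05 and 4.48 in OVA tumor cells (log2 fold change -2.30, SE 0.068, edgeR adjusted p = 4.77e-252). Btla was 0.0289 ± 0.0013 in OVA T cells and 0.133 ± 0.012 in OVA tumor cells (-2.22, SE 0.13, edgeR adjusted p = 1.21e-64). Both passed the 2-fold threshold downward, as did 95.9% of all genes, while 0.29% passed it upward and no member did. Set against other marker sums, Btla divided by the dendritic cell markers was 0.0332 ± 0.0018 in OVA T cells, 0.0326 ± 0.0012 in B16-F10 T cells and 0.0331 ± 0.0023 in OVA tumor cells. Ccr7, which T cells also express, made up 168 of 269 CPM of that sum in OVA T cells, 210.1 of 341 CPM in B16-F10 T cells and 72.1 of 151 CPM in OVA tumor cells. Btla divided by the macrophage markers was 0.0343 ± 0.0015 in OVA T cells, 0.0296 ± 0.00087 in B16-F10 T cells and 0.00275 ± 0.00021 in OVA tumor cells. Divided by the endothelial markers it was 0.00119 ± 0.000066 in OVA T cells, 0.00136 ± 0.000051 in B16-F10 T cells and 0.00154 ± 0.00011 in OVA tumor cells. Divided by the T cell markers it was 0.0100 ± 0.00052 in OVA T cells, 0.0119 ± 0.00045 in B16-F10 T cells and 0.0393 ± 0.0030 in OVA tumor cells. Entpd1 divided by the endothelial markers was 0.0403 ± 0.00055 in OVA T cells, 0.0333 ± 0.00055 in B16-F10 T cells and 0.0556 ± 0.00041 in OVA tumor cells. These ratios describe how the sums move together, and the part of those cells was not tested.

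**Figure D4:**
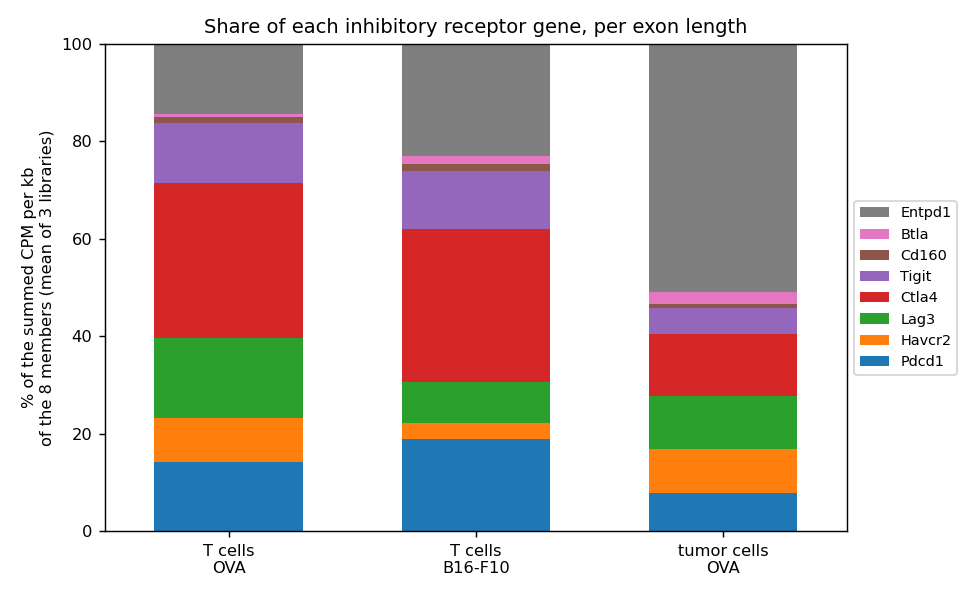
Share of each gene in the summed CPM per kilobase of exon of the 8 inhibitory receptor genes, as the mean of 3 libraries, for T cells OVA, T cells B16-F10 and tumor cells OVA; bars start at 0 and add up to the whole. Ctla4 takes the largest share in both T cell groups and Entpd1 in tumor cells OVA.

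Per kilobase of exon (GENCODE vM21 gene models on GRCm38), Ctla4 stood highest of the 8 genes in both T cell groups, at 121 ± 0.325 CPM per kb with the OVA label and 66.6 ± 0.260 CPM per kb with B16-F10. In OVA T cells the order then ran Lag3 (62.4 ± 0.997), Entpd1 (54.2 ± 0.515), Pdcd1 (53.8 ± 1.17), Tigit (46.6 ± 0.609), Havcr2 (34.6 ± 0.523), Cd160 (4.59 ± 0.085) and Btla (2.63 ± 0.13), all in CPM per kb. Entpd1 and Pdcd1 lie within their SD there. In B16-F10 T cells it ran Entpd1 (48.7 ± 0.633), Pdcd1 (40.1 ± 0.608), Tigit (25 ± 0.484), Lag3 (17.7 ± 1.17), Havcr2 (6.95 ± 0.459), Btla (3.27 ± 0.14) and Cd160 (3.08 ± 0.26), and Btla and Cd160 lie within their SD. Ctla4 made up 31.9 ± 0.153% of the summed level in OVA T cells and 31.5 ± 0.309% in B16-F10 T cells. Havcr2 made up 9.11 ± 0.0753% with OVA and 3.29 ± 0.207% with B16-F10, and Lag3 16.4 ± 0.243% with OVA and 8.37 ± 0.505% with B16-F10. In OVA tumor cells, Entpd1 made up 51.0 ± 0.594%.

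Genes around the receptors were described from lists of ligands, partner receptors, signalling genes, transcription factors and T cell receptor response genes. Each list count below stands beside 23.7% of all genes called higher and 22.4% called lower between the T cell groups. Of 12 ligands 11 were tested between the T cell groups, and 6 were called higher and 3 lower in OVA T cells, with a list median of 0.22. Cd274, which encodes PD-L1, had 778 CPM in OVA T cells and 90.0 CPM in B16-F10 T cells (log2 fold change 3.17, SE 0.020, edgeR adjusted p = 1.59e-35). Which cells of these libraries made the RNA of this and the other listed genes was not tested. Pdcd1lg2, which encodes PD-L2, rose by 1.01 (SE 0.14), Tnfrsf14 by 0.89 (SE 0.12) and Cd80 by 0.50 (SE 0.067). Partner and competing receptors were split, 5 higher and 6 lower of 14 tested, with a median of 0.013. Klrc1, which encodes the inhibitory lectin NKG2A, had 44.3 CPM in OVA T cells and 6.93 CPM in B16-F10 T cells (2.73, SE 0.065, edgeR adjusted p = 1.39e-22). Tnfsf14, another HVEM ligand, rose by 1.33 (SE 0.12), the co-stimulatory receptor gene Cd28 by 1.00 (SE 0.033) and Vsir, which encodes VISTA, by 0.92 (SE 0.033).

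Among signalling genes 4 were called higher and 7 lower of 13, with a median of -0.082. Ptpn6, which encodes the phosphatase SHP-1, rose by 0.66 (SE 0.046), while the adaptor genes Lax1 (-0.70, SE 0.066), Pag1 (-0.60, SE 0.065) and Sh2d2a (-0.41, SE 0.024) fell. Factors tied to expression of these receptors were also divided, 8 higher and 10 lower of 20, with a median of -0.16. Irf4, induced by T cell receptor signals, had 124 CPM in OVA T cells and 27.7 CPM in B16-F10 T cells (2.22, SE 0.039, edgeR adjusted p = 1.17e-25), and Tbx21, which encodes T-bet, rose by 1.24 (SE 0.10). Tcf7, a factor of naive and memory T cells, had 15.2 CPM in OVA T cells and 62.1 CPM in B16-F10 T cells (-1.98, SE 0.050, edgeR adjusted p = 4.87e-22), and Ikzf2 fell by 1.67 (SE 0.059). Tox, a factor of T cell exhaustion that the naming rule left out for its low level, had 0.475 CPM in OVA T cells and 3.42 CPM in B16-F10 T cells (-2.85, SE 0.27); it was named after its values were seen. Of 18 genes of the T cell receptor response, 15 were called higher and 1 lower, beside 23.7% and 22.4% of all genes. The list median was 0.58. Ifng had 315 CPM in OVA T cells and 12.8 CPM in B16-F10 T cells (4.67, SE 0.037), and Gzmb, Ccl4 and Ccl3 rose by 3.70, 2.51 and 2.28.

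**Figure D5:**
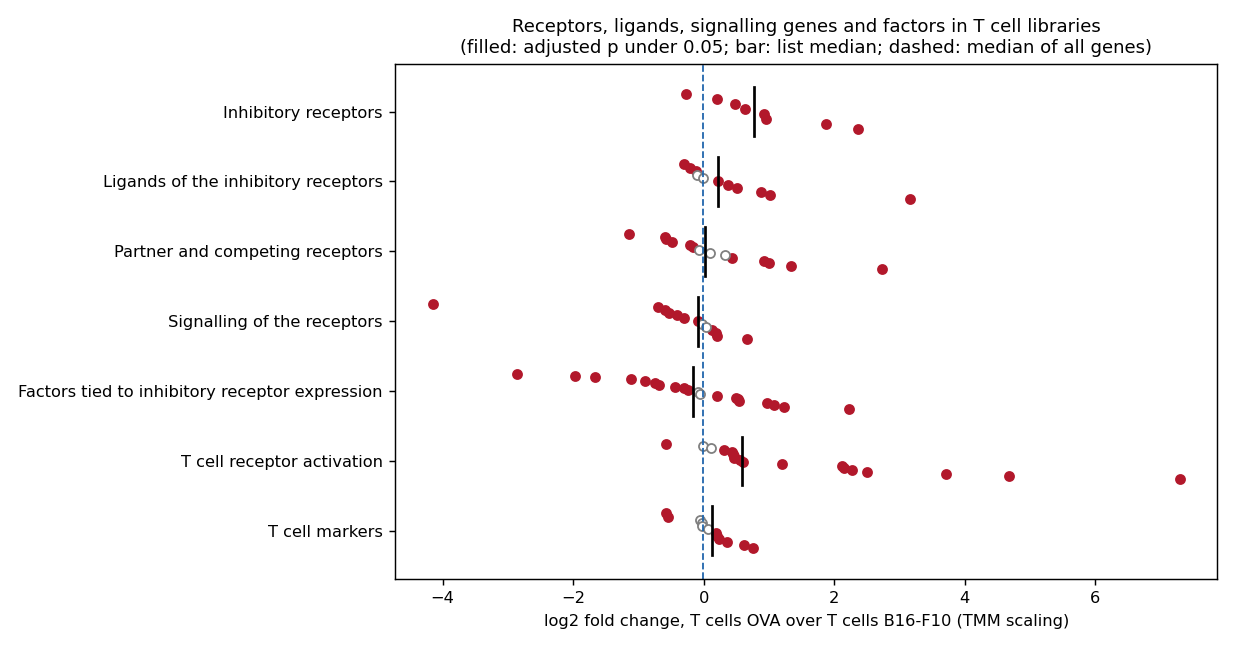
Log2 fold change of T cells OVA over T cells B16-F10 for the inhibitory receptors and the lists around them; filled points passed an adjusted p of 0.05, bars are list medians and the dashed line is the median of all genes. The members' median is 0.77 and that of the T cell receptor response list 0.58; the point farthest right is Il2 (0.969 CPM in T cells OVA, 0 counts in T cells B16-F10), whose fitted value depends on the prior count.

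For each member the 3 genes with the most similar profile over the 12 libraries were sought among 11651 genes, by the root mean square (RMS) difference of centred log2(CPM + 0.5). The distance is a description over libraries that share their groups. Icos, a co-stimulatory receptor of the CD28 family, lay nearest to Pdcd1 (RMS 0.061), followed by Trac (0.17) and Ms4a4b (0.19). Nearest to Ctla4 were Il2rb (0.36), Cd8a (0.44) and Pdcd1 (0.51), and nearest to Tigit Klrd1 (0.22), Cd8b1 (0.22) and Tnfrsf18 (0.27). Nearest to Havcr2 were AA467197 (0.37), Runx2 (0.40) and Tnfsf10 (0.44), and Lag3 lay nearest to Pfkfb3 (0.26), Tbx21 (0.30) and Fam20a (0.30). Cd160 lay nearest to Tnfsf8 (0.20), Txk (0.22) and Rhof (0.26). Nearest to Btla were Jag2 (0.078), Insr (0.085) and Id3 (0.090), and nearest to Entpd1 Csf2rb2 (0.13), Rasgef1b (0.16) and Laptm5 (0.17). All members but Lag3 and Havcr2 lay below 0.5 CPM in B16-F10 tumor cells, where the pseudocount shapes the distance. Btla had 0.0776 CPM there, against 5.18 CPM for Jag2, 34.5 CPM for Insr and 3.28 CPM for Id3. With a pseudocount of 1 CPM, 0 of these 3 genes stayed among the nearest to Btla.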

How the data were processed

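The authors deposited raw counts per gene for 12 libraries; per the submitters' processing notes reads were aligned to GRCm39 with HISAT2 2.0.5 and counted with featureCounts 1.6.0. Strand setting and the handling of multiply mapped reads are not given in the sources used here. Without strand, reads of Cd160 and Pdzk1 cannot be told apart where they overlap. The members, gene lists and tests were chosen with earlier results of these data known. CPM uses library totals without TMM. Tests used R 4.3.3 and edgeR 4.0.16: filterByExpr, TMM, quasi-likelihood F tests, Benjamini-Hochberg adjustment over all genes and a threshold of 0.05, on the 6 libraries of a cell fraction or on all 12 for differences between fractions. SE came from the F statistic. Anchor fits replaced library sizes by summed counts of Cd3e, Cd3d, Cd3g and Cd8a. Alternatives were DESeq2 1.42.0, limma-voom (limma 3.58.1), other scalings, filters and anchors, a replicate block and leaving out each library. The edgeR fits, except T cells against tumor cells under the B16-F10 label, were run on simulated counts with a fixed low scatter and a minimum anchor level. The 2-fold and permutation tests were not checked this way. In the text, all members and anchors are named, and per list up to 4 called genes with the largest change and at least 5 CPM in the higher group. Tox and further marker genes, such as Pecam1, Foxp3, Ccr7, Trac and Ncr1, are named outside this rule. Within-group library pairs differed by 1.51 to 1.77 times counting noise (chi-square per degree of freedom), so no 2 libraries held the same counts; a shared RNA source was not tested.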

Additional observations from a re-analysis of the deposited data

Results flagged for a closer look

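The OVA effect differed between T cells and tumor cells for all 8 inhibitory receptor genes, tested as an interaction over all 12 libraries with edgeR. In each case the effect was smaller in T cells than in tumor cells, as it was for 41.3% of all genes tested, and the median difference of all genes was -0.16 on the log2 scale. Lag3 differed least, by -0.40 (SE 0.11, edgeR adjusted p = 0.00289). Havcr2 differed by -1.88 (SE 0.16), Cd160 by -1.77 (SE 0.33), Btla by -6.32 (SE 0.28) and Entpd1 by -8.72 (SE 0.071), each with an edgeR adjusted p of at most 3.74e-05. Of these, Cd160, Btla and Entpd1 lay below the filter's level in B16-F10 tumor cells. For Pdcd1 (edgeR adjusted p = 9.58e-19), Ctla4 (4.93e-22) and Tigit (6.67e-13) no size is given, because B16-F10 tumor cells held 0 to 2 counts of them. All 12 T cell markers differed the same way.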

How the results depend on the processing

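Without the anchor, every member kept its direction in the comparisons between groups under DESeq2, limma-voom, the scalings and filters tried, the replicate block and with each library left out; only Btla lost its call between T cell groups, in the 3 cases given above. The count of members called there ran from 7 to 8 with a library left out, and the other member counts did not move. A 2-fold test, chosen after seeing the data, left 2 members called between the T cell groups, 2 per anchor between the T cell groups and 2 per anchor between OVA T cells and OVA tumor cells. It left 450 genes between the T cell groups, 4664 between the tumor cell groups, 4295 and 8713 between fractions under OVA and B16-F10, 4970 for the difference of the OVA effects and 428 per anchor between the T cell groups. Without a filter on low counts 28730 genes were called per anchor between OVA T cells and OVA tumor cells, as more genes were tested. With the Trac, Trbc1 and Trbc2 anchor Btla came to 0.012 between T cell groups and Havcr2 to 0.040 between fractions labelled OVA, both reversed in sign and not called. Per anchor, Cd160 between fractions labelled OVA came to -0.12 (adjusted p = 0.570) without replicate 1 of OVA tumor cells, also reversed, and ran up to 0.35 with another library left out; none of these was called. The replicate numbers share no stated origin: correlations of same-numbered libraries ran from -0.074 to 0.20, 2 of 12 exceeded 0.1, and 6 of 24 libraries correlated best with their own number. The replicate block gave 7576 called genes and 8 called members between the T cell groups, against 7623 genes without it, and among the members' calls changed only that of Entpd1 per anchor. With a pseudocount of 1 CPM the nearest genes of Havcr2, Lag3, Tigit and Btla changed. Anchor ratios in OVA tumor cells rest on 663 to 1226 anchor counts a library, and no ratio was formed in B16-F10 tumor cells.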
